A study of Mus musculus with 65 samples.

Results

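Within 2 types of spinal cord progenitor, p3 and pMN, cells exposed to 500 nM of the hedgehog agonist SAG were set against cells exposed to 100 nM. Every library labelled p3 or pMN, day 5 or day 6, and 500 or 100 nM SAG was taken, which gave 22 of the 65 libraries of the series, 10 at 500 nM and 12 at 100 nM. Each cell type contributed 5 libraries at 500 nM (3 on day 5 and 2 on day 6) and 6 at 100 nM (3 on each day). The comparison asks whether a progenitor type isolated by the same gates carries a different transcriptome when a different concentration of the signal produced it, and whether both types answer alike.

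The study measured RNA from fixed, antibody-stained and sorted cells of HM1, a single line of mouse embryonic stem (ES) cells. The cells passed through a neuromesodermal progenitor stage (bFGF and the inhibitor LGK until day 2, then bFGF, CHIR99021, SB-431542 and DMH1 until day 3), and from day 3 all of them received 100 nM retinoic acid (RA) together with their concentration of SAG. They were crosslinked, stained inside the cell and sorted among SOX2-positive cells, p3 as NKX2.2-positive and OLIG2-negative and pMN as OLIG2-positive. Cells positive for both proteins were, per the study, left out of the pMN sorted for its accessibility data. Replicates were independent differentiations, and the labels do not tell whether p3 and pMN libraries of one number came from 1 dish. For its accessibility data the study describes comparing cell types sorted from 1 dish, and it collected RNA samples in the same way. The p3 and pMN libraries of one day, concentration and number may thus share a dish by design. This is a dish model without notochord, and no p3 or pMN library without SAG was analysed here.

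Sonic hedgehog (Shh) reaches ventral neural progenitors from the notochord and floor plate. It relieves the block that its receptor Patched exerts on Smoothened, and Gli transcription factors then turn on target genes, some of which encode the pathway's own inhibitors (Ptch1 and Hhip among them) and one its activator (Gli1). SAG binds Smoothened directly and so replaces the ligand. Progenitors read the strength and length of the signal: the p3 domain, next to the floor plate, expresses Nkx2-2 and Nkx2-9 and forms V3 interneurons, while the more dorsal pMN domain expresses Olig2 and forms motor neurons.

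The libraries held 8937620 to 13175200 reads assigned to genes, and 1 library in each of p3 at 500 nM and pMN at 100 nM set those bounds. The number of genes with any read differed between groups. p3 libraries had 12474 to 14088 genes (median 13424) at 500 nM and 10338 to 12543 (median 12101) at 100 nM, whereas pMN libraries had 11493 to 13923 at 500 nM and 11649 to 13643 at 100 nM. The 2 lowest, with 10571 and 10338 genes, were the libraries numbered 2 of p3 at 100 nM on days 5 and 6. Libraries numbered 2 as a whole had 10338 to 12991 genes (n = 6, of which 4 at 100 nM) and the others 12009 to 14088 (n = 16). The first principal component of the 500 most variable genes held 14.3% of the variance, the number of genes detected accounted for 89.8% of it and replicate number for 47.5%. Cell type accounted for 66.9% of the second component and day for 67.3% of the third, and SAG for 8.91, 1.94 and 5.96% of components 1 to 3. Within p3 alone SAG accounted for 54.7% of the first component and within pMN for 4.49%. On it p3 libraries at 100 nM lay at -67.6 to -6.26 and those at 500 nM at -14.2 to 37.3, with 4 of the 5 above every library at 100 nM. Of markers of cells that a gate could let through, 6 of 9 mesoderm genes passed the expression filter (summed 0 to 325 normalised reads in p3 and 0 to 285 in pMN), and so did 2 of 7 endoderm genes, 2 of 6 endothelial and blood genes and 1 of 7 pluripotency genes. Of 6 neural crest genes 2 passed.

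Levels below are normalised reads, that is read counts divided by 1 size factor per library, and differences are log2(500 nM / 100 nM) after adding 1 normalised read. With limma and day by cell type as blocks, and calls made above a 2-fold change at a Benjamini-Hochberg adjusted p under 0.01, 0 of 13663 genes differed between 500 and 100 nM SAG over both types (0%), with a smallest adjusted p of 0.0541. The same limma test called 0 genes (0%) in p3 alone, 0 (0%) in pMN alone, 0 (0%) for the difference between the p3 and pMN responses and 0 (0%) for the difference between days. At an unadjusted p below 0.05, which is no correction over genes, there were 595 genes over both types (4.35% of those tested), 1202 in p3 (8.8%), 498 in pMN (3.64%) and 960 for the difference between types (7.03%). For the difference between days there were 435. edgeR's quasi-likelihood test on the recovered reads called 0 genes in each of these 5 comparisons. DESeq2 on the same reads called 25, 156, 83, 126 and 95, and of the 25 over both types 24 had at least 1 library at 0 reads, as had 150 of the 156 in p3, beside 6197 (45.4%) of all genes tested. In limma 13 of those 25 and 89 of those 156 had an unadjusted p below 0.05, each with the same sign. In the same 22 libraries and by the same limma rule, p3 against pMN called 61 genes (0.446%), 36 higher in p3 and 25 lower, so these libraries returned calls for cell type and none for SAG concentration. The difference between these counts is not itself a test.

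How large a difference could have been missed depended on the level of a gene. Of the 13663 genes, 4575 (33.5%) had a 95% interval for the pooled SAG difference that lay wholly within 2-fold, and 2511 (18.4%) in p3 alone and 2588 (18.9%) in pMN alone did. Among the 2661 genes that averaged 1000 normalised reads or more, the interval lay within 2-fold for 2474 (93.0%). It did so for 28.1% of the 7490 genes between 100 and 1000, and for 0% of the 3512 genes between 10 and 100. For genes of low level the intervals thus did not exclude a 2-fold change. By sign, 61.8% of all genes tested were higher at 500 nM over both types, 66.4% in p3 and 48.1% in pMN, and the counts by sign below stand beside these shares.

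The induced targets of Shh came first among the genes of interest. Gli1 (mm10, chr10:127329882-127341579, minus strand), which encodes the activator whose transcription is itself a readout of the pathway, had in p3 at 500 nM 1023, 1485 and 808 on day 5 and 465 and 202 on day 6, in normalised reads. At 100 nM the 6 p3 libraries had a lowest of 701, a median of 1097 and a highest of 1954. The 2 lowest p3 libraries were both at 500 nM on day 6, the remaining 500 nM libraries lay inside the range of those at 100 nM, and the groups overlapped. The p3 difference was -0.83 ± 0.31 (SE, 95% interval -1.47 to -0.19), with an unadjusted p of 0.0129 and a limma adjusted p of 0.498, and the exact permutation test (200 assignments within day, two-sided) gave p = 0.05. In pMN Gli1 had 1275, 1962 and 2079.6 on day 5 and 1202 and 1238 on day 6 at 500 nM, against a lowest of 945, a median of 1317 and a highest of 1582 at 100 nM, again with overlap. The pMN difference was 0.22 ± 0.31 (SE, 95% interval -0.42 to 0.85). Gli1 was thus lower in p3 and slightly higher in pMN by its means, and the difference between the types, -1.05, had an unadjusted p of 0.0247 and a limma adjusted p of 0.704. Reads of Gli1 and of the overlapping Arhgap9 on the opposite strand cannot be told apart, since use of the strand in counting is not stated.

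Ptch1 (chr13:63508328-63573460), the Shh receptor and a feedback inhibitor, was the most precisely measured target. It had 4238, 4174 and 5309 on day 5 and 2801 and 3541 on day 6 in p3 at 500 nM and a lowest of 3291, a median of 4284 and a highest of 5452 at 100 nM. pMN held 4903, 4304 and 5167 on day 5 and 3799.8 and 5574 on day 6 at 500 nM and a lowest of 3144, a median of 4468 and a highest of 5735 at 100 nM. All 4 groups covered nearly the same range. The pooled Ptch1 difference was -0.0053 ± 0.13 (SE, 95% interval -0.28 to 0.27), well within 2-fold, and the interval was -0.53 to 0.24 in p3 and -0.25 to 0.52 in pMN. Hhip, which binds and sequesters hedgehog ligands, ranged over 409 to 606 and 165 to 667 in pMN. One p3 library at 100 nM on day 6 was at 0 for Hhip, and its pooled difference was 0.69 ± 0.71 (SE, 95% interval -0.78 to 2.16), or 0.10 without that library. Of the 4 genes of the target list 0 were called over both types or in either alone, and the median of their pooled differences was 0.018, beside 0.13 over all genes tested.

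**Figure D1:**
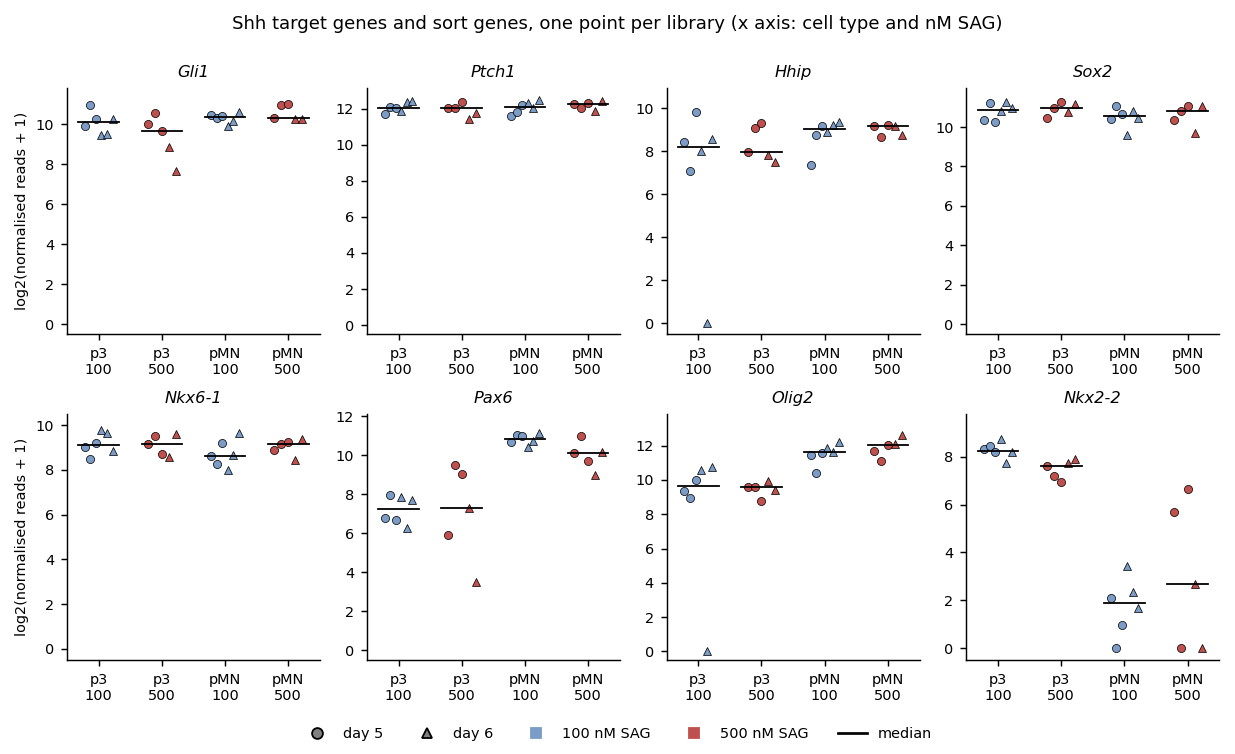
Normalised reads of 3 Shh targets and 5 sort-related genes in each of the 22 libraries (points, vertical axis log2 of normalised reads after adding 1), by cell type, SAG concentration and day, with a bar at the median of each group. For Ptch1 the groups lie on top of each other, whereas Nkx2-2 in p3 shows most 500 nM points below those at 100 nM, 121 to 236 against 214 to 426.

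To place these values on the SAG scale of the series, Gli1 averaged 40.7 ± 32.3 (SD, n = 6) in p0-1 without SAG and 160.1 ± 102 (n = 6) at 10 nM. It averaged 473 ± 184 (n = 6) in p2 at 10 nM and 884 ± 191 (n = 6) at 100 nM. The pMN libraries averaged 1284 ± 219 (n = 6) at 100 nM and 1551 ± 431 (n = 5) at 500 nM, and p3 averaged 1136 ± 462 (n = 6) and 797 ± 497 (n = 5). All 22 libraries of p3 and pMN lay above the highest p0-1 library without SAG, 78.1. The lowest of them, 202, lay below the highest p0-1 library at 10 nM, 296. The highest p2 library at 10 nM, 646, lay above both p3 libraries at 500 nM on day 6. Ptch1 rose in the same order through p0-1, p2 and pMN, from 692 ± 342 in p0-1 without SAG to 4750 ± 703 in pMN at 500 nM. Its 4 means in p3 and pMN lay between 4013 and 4750 with overlapping ranges. Hhip did not follow this order. It averaged 1411 in p2 at 100 nM, and at 100 and 500 nM 487 and 522 in pMN and 340 and 368 in p3. Concentration and cell type differ together along most of this scale, so their parts cannot be told apart.

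The other 16 genes of the pathway on the list (co-receptors, Smo, Gli2, Gli3 and their regulators) gave 0 calls in every SAG comparison. Pooled over both types 10 were higher and 6 lower by sign, 0 had an unadjusted p below 0.05, and the median difference was 0.33. In p3, 13 were higher with a median of 0.73, beside a median of 0.32 over all genes in p3. The smallest p belonged to Gli3, which encodes the main Gli repressor. Gli3 had 774, 265 and 631 on day 5 and 623 and 506 on day 6 in p3 at 500 nM and a lowest of 60.3, a median of 299 and a highest of 399 at 100 nM, so that 4 of the 5 libraries at 500 nM lay above every library at 100 nM. Its p3 difference was 1.27 ± 0.47 (SE, 95% interval 0.30 to 2.25) with a limma adjusted p of 0.498, and in pMN it was 0.13 ± 0.47 (SE, 95% interval -0.84 to 1.11).

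The genes behind the sort were read next, as a check of the labels and for any difference within a gate. Nkx2-2 (chr2:147177546-147186402), whose protein defines the p3 gate, had 196, 146 and 121 on day 5 and 211 and 236 on day 6 in p3 at 500 nM. At 100 nM it had a lowest of 214, a median of 305 and a highest of 426 in p3. All but the highest of the 500 nM values lay below the lowest at 100 nM. The exact permutation test on the p3 difference of -0.78 gave p = 0.015 (two-sided, 200 assignments, where 0.005 is the smallest p possible), whereas the limma fit, which shares 1 spread between p3 and the pMN libraries near 0, gave -0.78 ± 1.23 (SE, 95% interval -3.33 to 1.76) with p = 0.531. In pMN Nkx2-2 had 50.1, 0 and 98.1 on day 5 and 5.41 and 0 on day 6 at 500 nM and 0 to 9.76 at 100 nM. The Nkx2-2 transcript shares an opposite-strand overlap with Nkx2-2os.

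Olig2 (chr16:91225550-91228677), the defining factor of pMN, had 3295, 2172 and 4266 on day 5 and 4442 and 6214 on day 6 in pMN at 500 nM. The pMN libraries at 100 nM had a lowest of 1368, a median of 3115 and a highest of 4753, and the 2 concentrations overlapped. Olig2 RNA was not absent from p3, which was sorted as negative for the protein: it ranged over 435 to 975 at 500 nM and 0 to 1741 at 100 nM, and the p3 against pMN difference of -2.89 had a limma adjusted p of 0.112. The pooled SAG difference of Olig2 was 0.76 ± 0.81 (SE, 95% interval -0.92 to 2.44), and 0.0097 without the 1 p3 library at 100 nM that was at 0. Pax6 (chr2:105668896-105698410), which Shh represses and which marks pMN and more dorsal progenitors, had 1129, 2054 and 848 on day 5 and 503 and 1147 on day 6 in pMN at 500 nM. At 100 nM pMN had a lowest of 1406, a median of 1858 and a highest of 2246. Within pMN, 4 of the 5 libraries at 500 nM lay below the lowest at 100 nM. The pMN difference of Pax6 was -0.87, with an exact permutation p of 0.025 (200 assignments, two-sided) and a limma adjusted p of 1 (95% interval -2.32 to 0.58). In the limma fit of the 11 pMN libraries alone its unadjusted p was 0.0121. Pax6 exons overlap those of Elp4 on the opposite strand.

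Sox2, the pan-neural factor used to select all cells, differed by 0.11 ± 0.19 (SE, 95% interval -0.29 to 0.51) over both types, and Nkx6-1, expressed from p2 to p3, by 0.13 ± 0.27 (SE, 95% interval -0.42 to 0.68). For both the interval lay within 2-fold. Of 27 exact permutation tests (5 sort-related genes and 4 targets, over both types and in each), 2 gave p below 0.05, Nkx2-2 in p3 and Pax6 in pMN, before any adjustment for the number of tests. The cell type labels were checked in the same libraries. p3 exceeded pMN in Nkx2-2 by 5.60 (limma adjusted p 0.000561) and differed from it in Pax6 by -3.32 (adjusted p 0.000217). Olig2 did not pass that test, as given above, and the highest p3 library for Olig2, 1741, lay above the lowest pMN library, 1368. Its means at 100 and 500 nM were 3154 and 4078 in pMN and 905 and 726 in p3. The p3 library at 0 entered this test, and the test without it is not given.

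Nkx2-9 (chr12:56611397-56613284), the other Nkx2 gene of the p3 domain, separated the concentrations on each day in pMN. pMN libraries had 564, 893 and 1183 on day 5 and 414 and 704 on day 6 at 500 nM. At 100 nM pMN had a lowest of 0, a median of 159.6 and a highest of 560.0. On day 6 the 500 nM libraries lay above those at 100 nM, and on day 5 the lowest 500 nM library was just above the highest at 100 nM, 564 against 560.0. The pMN difference was 3.07 ± 0.98 (SE), unadjusted p 0.0047 and limma adjusted p 1. It was 1.56 without the 1 pMN library at 100 nM that was at 0. In p3 Nkx2-9 ranged over 505 to 1940.4 at 500 nM and 573 to 2394 at 100 nM, a difference of -0.21 ± 0.98 (SE, 95% interval -2.24 to 1.82). The difference between the types, -3.28, had an unadjusted p of 0.0268 and a limma adjusted p of 0.704. Of the 6 p3 and V3 genes 4 passed the filter on low values, and 0 were called.

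Floor plate genes were included because p3 and floor plate adjoin and both need the highest signal. Of 11 genes, 10 passed the filter on low values (Ferd3l did not) and 0 were called in any SAG comparison. By sign 9 were higher and 1 lower over both types (median 0.33 beside 0.13 over all genes), and their summed level covered 3702 to 30139 in p3 at 500 nM and 4183 to 18692 at 100 nM. Foxa2 (chr2:148042877-148046969), the pioneer factor of the floor plate that early p3 cells also express, had 1365, 232 and 1773 on day 5 and 907 and 3100.3 on day 6 in p3 at 500 nM. At 100 nM p3 had a lowest of 427, a median of 628 and a highest of 2341, and the groups overlapped. The p3 difference was 0.64 ± 1.55 (SE, 95% interval -2.56 to 3.85). In pMN Foxa2 had 98.6, 0 and 119 on day 5 and 128 and 368 on day 6 at 500 nM and 88.8, 346 and 0 on day 5 and 0, 0 and 0 on day 6 at 100 nM. It was detected in both day 6 libraries at 500 nM and in none of the 3 at 100 nM, while on day 5 either concentration had 1 library at 0. The pMN difference was 3.20 ± 1.55 (SE, 95% interval -0.0087 to 6.40), limma adjusted p 1, and its sign was opposite on day 5 alone (-0.46).

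The remaining floor plate genes split by level. Ntn1, which encodes the axon guidance cue netrin 1, was the most precise of them: 2845 to 9795 in p3 at 500 nM, 2649 to 7259.8 at 100 nM, and a pooled difference of 0.16 ± 0.19 (SE, 95% interval -0.24 to 0.56), within 2-fold. Spon1, a secreted adhesion protein, differed by 0.10 ± 0.35 (SE, 95% interval -0.62 to 0.83). Shh itself had 106, 9.54 and 339 on day 5 and 344 and 1335 on day 6 in p3 at 500 nM and 0.88 to 952 at 100 nM. In pMN Shh had 19.2, 0 and 0.876 on day 5 and 33.2 and 25.3 on day 6 at 500 nM, and 5 of the 6 libraries at 100 nM were at 0 with the other at 8.78. The pMN difference of Shh was 2.66 ± 1.45 (SE, 95% interval -0.33 to 5.66). Foxa1, a relative of Foxa2, ranged over 39.9 to 552 in p3 at 500 nM and 0 to 264 at 100 nM, with 2 libraries at 0 in the latter and a p3 difference of 3.02 (unadjusted p 0.0466, limma adjusted p 0.567). Sulf1, a heparan sulfate editing enzyme, was the only one lower by sign over both types, -2.58 (unadjusted p 0.0304, limma adjusted p 0.964). Lmx1b, a floor plate transcription factor, was at 0 in all 11 pMN libraries and ranged from 0 to 95.1 in p3. Slit2 (axon repellent; pooled difference 0.34, 95% interval -1.28 to 1.97) and Vtn (vitronectin; 0.22, -2.11 to 2.55) had intervals wider than 2-fold. As a scale for these values, p3 exceeded pMN in the same libraries by 2.03 for Ntn1, 5.79 for Foxa2 and 7.35 for Vtn, each past the limma threshold (adjusted p 5.29e-06, 0.00287 and 0.000538).

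**Figure D2:**
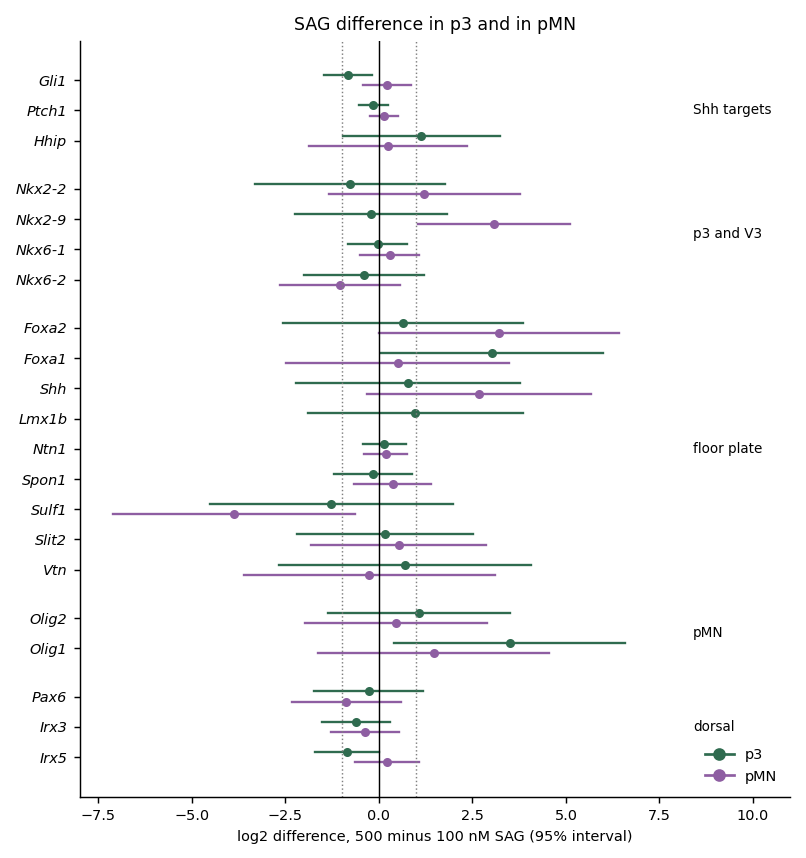
Log2(500 nM / 100 nM) with its 95% interval (horizontal axis, log2 units) for Shh targets and genes of p3, the floor plate, pMN and dorsal progenitors, in p3 (green) and pMN (purple), with Lmx1b left out in pMN, where it was at 0. Dotted lines mark 2-fold. Ptch1 and Ntn1 stay within 2-fold in both types, whereas the floor plate genes of low level have intervals several log2 units wide.

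Among the 13 pMN and motor neuron genes 0 were called, 11 were higher and 2 lower by sign over both types, and the median was 0.60. The 3 with an unadjusted p below 0.05 were Olig1, Slit3 and Slc18a3. Olig1, a partner gene of Olig2, had 245, 163 and 107 on day 5 and 189 and 6.15 on day 6 in p3 at 500 nM, while at 100 nM it had 0, 0 and 2.19 on day 5 and 434, 0 and 427 on day 6. Its pooled difference was 2.48 ± 1.06 (SE, 95% interval 0.30 to 4.66) with a limma adjusted p of 0.964. Slit3, a guidance cue of motor neurons, had 1422, 1377 and 1188 on day 5 and 3513 and 8873 on day 6 in pMN at 500 nM and a lowest of 857, a median of 1113 and a highest of 3173 at 100 nM. The highest values at both concentrations were on day 6, and the groups overlapped. The pooled difference of Slit3 was 0.60 ± 0.24 (SE, 95% interval 0.096 to 1.11), limma adjusted p 0.964. Slc18a3, the vesicular acetylcholine transporter, differed by 2.27 ± 1.05 (SE, 95% interval 0.11 to 4.43), and 2 of the 6 p3 libraries at 100 nM were at 0. In bulk samples, fewer cells of a type and less RNA per cell cannot be told apart, for these genes and for all others here.

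Of the 18 dorsal and intermediate progenitor genes only 5 passed the filter on low values, and 0 were called. Irx5, an Iroquois homeobox gene that Shh restricts, had 382, 615 and 237 on day 5 and 327 and 232 on day 6 in p3 at 500 nM and a lowest of 452, a median of 545 and a highest of 1039 at 100 nM, a difference of -0.87 ± 0.41 (SE, 95% interval -1.72 to -0.011). Of its 5 values at 500 nM, 4 lay below the lowest at 100 nM, and the limma adjusted p was 0.567. Dbx1, a gene of p0 progenitors, was at 0 in all libraries except for 2 pMN libraries at 100 nM on day 5, with 88.8 and 288 normalised reads.

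The remaining lists had 0 calls as well, each read against the median of all genes, 0.13 over both types and 0.32 in p3. Of 23 neurogenesis and Notch genes tested, 15 were higher and 8 lower by sign over both types (median 0.11). Hes5, a Notch effector that maintains progenitors, had 3522, 4668 and 1897 on day 5 and 5151 and 1246 on day 6 in p3 at 500 nM and a lowest of 2985, a median of 4782 and a highest of 6450.2 at 100 nM, and both pMN groups lay above all of these, at 6987 to 10061 and 7895 to 10681. The p3 difference of Hes5 was -0.71 ± 0.28 (SE, 95% interval -1.29 to -0.13), limma adjusted p 0.52. For the 24 cell cycle genes the median was -0.045 over both types, with 11 higher and 13 lower. Ccnd2, the D-type cyclin of neural progenitors, had 11657, 11677 and 15597 on day 5 and 11224 and 7283 on day 6 in p3 at 500 nM. At 100 nM p3 had a lowest of 11683, a median of 15455 and a highest of 20716, with overlap, and the p3 difference was -0.51 ± 0.14 (SE, 95% interval -0.80 to -0.22) at a limma adjusted p of 0.349. In pMN the Ccnd2 difference was 0.020 ± 0.14 (SE, 95% interval -0.27 to 0.31). The 16 sterol synthesis genes, which bear on Smoothened because sterols bind it, had a median of -0.019 with 8 higher and 8 lower.

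Retinoic acid genes (11 tested, 4 higher and 7 lower, median -0.053), FGF, BMP and Wnt response genes (18 tested, 13 and 5, 0.12), stress and early response genes (15 tested, 9 and 6, 0.099), neural progenitor genes (9 tested, 7 and 2, 0.11) and gliogenic genes (8 tested, 4 and 4, -0.013) likewise gave 0 calls over both types. The mesoderm markers had the highest list median, 2.15 over 6 genes tested, with Twist1 and Meox1 at unadjusted p of 0.0229 and 0.0278 and 0 called (limma). Their summed level in pMN was 122 to 285 at 500 nM and 0 to 108 at 100 nM, without overlap, and 4 of the 9 were at 0 in every p3 library at 500 nM, 5 of the 9 in p3 at 100 nM and 3 of the 9 in each pMN group. The part of other cells in any difference given here was not tested.

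Genes were then ranked by p among those with a mean of at least 100 in a group and the same sign in each block of day and cell type, and the first 5 in each direction are described. None was called by limma. The choice by p in these same libraries favours groups without overlap, and the share of all genes without overlap is not given here. Slc37a2 (chr9:37229149-37255738), which encodes a sugar phosphate exchanger of the endoplasmic reticulum, led over both types. It had 84, 59 and 47.2 on day 5 and 157 and 123 on day 6 in p3 at 500 nM, and in the 6 p3 libraries at 100 nM it had 0 in 5 and 10.5 in 1. In pMN it had 107, 258 and 91.1 on day 5 and 109 and 625 on day 6 at 500 nM and 21, 0 and 0 on day 5 and 2.93, 271 and 3.24 on day 6 at 100 nM. The p3 groups did not overlap, and in pMN 1 library at 100 nM exceeded 4 of the 5 at 500 nM. The pooled difference was 5.43 ± 0.91 (SE, 95% interval 3.54 to 7.31), with the smallest adjusted p of the pooled limma fit, 0.0541. Without the intensity trend in the variance that adjusted p was 0.00922, and without the pMN library 2 of day 6 at 100 nM it was 0.00406, both past the threshold. Under the other alternatives that gave one it lay between 0.0283 and 1.00, highest with edgeR, and with a pseudocount of 10 the difference was 3.15.

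Klhl11 (chr11:100457122-100472782), which encodes a substrate adaptor of a cullin ubiquitin ligase, was the leading gene with reads in every library. In p3 it had 340.4, 527 and 810.0 on day 5 and 549 and 513 on day 6 at 500 nM, and at 100 nM a lowest of 69.2, a median of 99.8 and a highest of 327. In pMN it had 567, 632 and 602 on day 5 and 685 and 456 on day 6 at 500 nM, and at 100 nM a lowest of 207, a median of 339 and a highest of 389.6. The 2 concentrations did not overlap in either type. The pooled difference of Klhl11 was 1.54 ± 0.34 (SE, 95% interval 0.84 to 2.24), 2.17 in p3 and 0.91 in pMN, with a pooled limma adjusted p of 0.614. DESeq2 on the recovered reads gave Klhl11 an adjusted p of 0.000534 over both types, and under the other alternatives, the limma ones and edgeR, it lay between 0.129 and 1.00. Over the alternatives run, the pooled difference stayed between 1.26 and 1.89.

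Arc, an activity-regulated gene of neurons, had 165, 463 and 479 on day 5 and 312 and 412 on day 6 in p3 at 500 nM and 0 in 5 of 6 p3 libraries at 100 nM, with 19.4 in the other. In pMN its groups overlapped (0 to 300.0 and 0 to 264). Ngly1, an enzyme that removes N-glycans from misfolded proteins (overlapped on the opposite strand by Oxsm), did not overlap in pMN, 109 to 382 against 0 to 99.5, and overlapped in p3. Syt3, a calcium sensor of vesicles, differed by 4.55 with overlap in both types. The 5 lower at 500 nM were genes of higher level and smaller difference. Slc3a2, the heavy chain of amino acid transporters, differed by -0.41 ± 0.11 (SE, 95% interval -0.63 to -0.19). Ddx1, an RNA helicase, differed by -0.61 ± 0.17 (SE, 95% interval -0.95 to -0.26), and in pMN its 909 to 1901 at 500 nM lay wholly below 2039.6 to 2874 at 100 nM. Mbtps2, the site-2 protease that releases SREBP from membranes, likewise did not overlap in pMN (311 to 570.3 and 593 to 1246), and its pooled difference was -0.98 ± 0.28 (SE, 95% interval -1.55 to -0.41). Pappa, a protease that frees insulin-like growth factors, differed by -1.12 ± 0.32 (SE, 95% interval -1.77 to -0.46), and Plekha1, a phosphoinositide-binding adaptor, by -0.78 ± 0.22 (SE, 95% interval -1.23 to -0.32). Each of these 5 had a pooled limma adjusted p of 0.964.

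**Figure D3:**
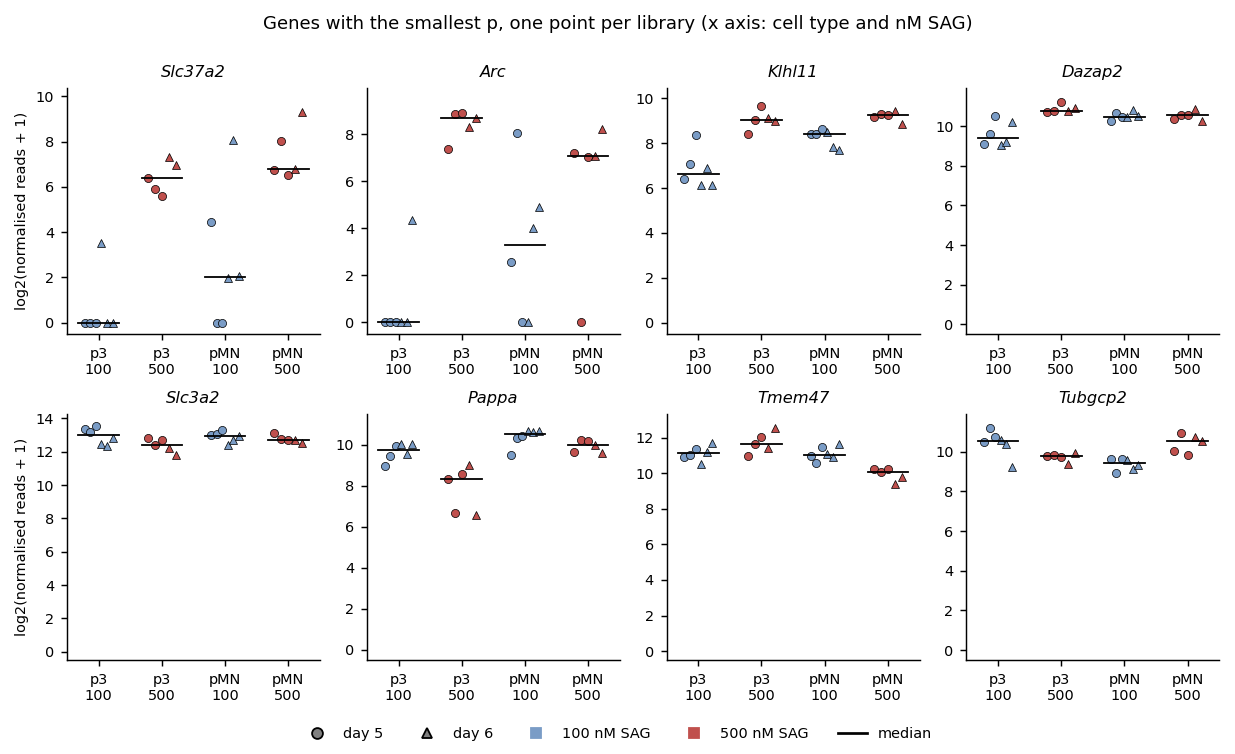
Normalised reads (vertical axis, log2 after adding 1) of 8 of the leading genes in the 22 libraries, by cell type, SAG concentration and day, each point 1 library and each bar a group median. Klhl11 is higher at 500 nM without overlap in both types, Arc and Dazap2 separate the concentrations in p3, and Tmem47 and Tubgcp2 separate them in pMN.

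In p3 alone, 1019 of the 1202 genes with an unadjusted p below 0.05 were higher at 500 nM and 183 lower, a split that moved with scaling. The median difference over all genes in p3 was 0.32. With quantile scaling the median was 0.062 and the split 570 higher and 411 lower. With the number of genes detected as a covariate the median was -0.022 and the split 392 higher and 388 lower. The p3 libraries themselves differed in genes detected, by 1677 between the concentrations (exact permutation test within day, two-sided, p = 0.015, 200 assignments). Without the libraries numbered 2, p3 still had 13026 to 14088 genes at 500 nM (n = 4) and 12009 to 12543 at 100 nM (n = 4). In pMN the difference was -335 genes (p = 0.495, same exact test). Over both types the unadjusted split of 445 higher and 150 lower became 294 and 277 with quantile scaling and 231 and 309 with the covariate. The part of genes detected in any single difference was not tested.

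**Figure D4:**
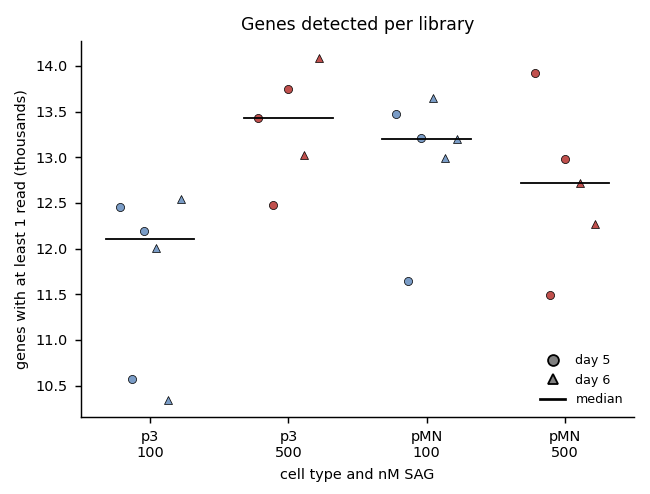
Genes with at least 1 read (vertical axis, number of genes) in each of the 22 libraries, by cell type and SAG concentration, with circles for day 5, triangles for day 6 and a bar at the median. p3 at 500 nM sits at 12474 to 14088 and p3 at 100 nM at 10338 to 12543, while the ranges of the pMN groups overlap over most of their length.

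Among the p3 leaders, picked by p in these libraries, Dazap2 and Slc2a1 were genes of high level that separated the concentrations. Dazap2 (chr15:100615662-100620761), which encodes a small proline-rich adaptor protein, had 1691, 1749 and 2375 on day 5 and 1755 and 1916 on day 6 at 500 nM. The 6 p3 libraries at 100 nM had a lowest of 531, a median of 684 and a highest of 1487. The p3 groups did not overlap, and the difference was 1.24 ± 0.26 (SE, 95% interval 0.70 to 1.78) with a limma adjusted p of 0.165. In pMN Dazap2 ranged over 1214 to 1856 and 1234 to 1785 and differed by 0.0068 ± 0.26 (SE, 95% interval -0.53 to 0.55). Slc2a1, the glucose transporter GLUT1, had 4684, 4014 and 5117 on day 5 and 5301 and 3491 on day 6 in p3 at 500 nM, all below the 5636 to 8486 at 100 nM, a difference of -0.68 ± 0.16 (SE, 95% interval -1.01 to -0.35), limma adjusted p 0.241. Pappa had 325, 99.8 and 384 on day 5 and 521 and 95.3 on day 6 in p3 at 500 nM, with a lowest of 503, a median of 873 and a highest of 1065 at 100 nM. Only the highest p3 value of Pappa at 500 nM, 521, reached the lowest at 100 nM, 503. Slc3a2 in p3 was -0.64 and the histone gene H2ac8 -1.60, both with overlap. Bdh2, a hydroxybutyrate dehydrogenase of the cytosol, had 14.9 to 204 at 500 nM and 0 in 5 of 6 libraries at 100 nM, with 7.43 in the other, and AI504432, an unnamed transcript, 83.3 to 205 and 0 to 15.6. Arc and Klhl11 completed the 5 highest, all at a limma adjusted p of 0.165. In the limma fit of the 11 p3 libraries by themselves 0 genes were called, with 824 at an unadjusted p below 0.05 and a smallest adjusted p of 0.0867.

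In pMN the larger number went the other way, with 155 genes higher and 343 lower at an unadjusted p below 0.05 (206 and 380 with quantile scaling, 228 and 310 with the covariate). The median over all genes was -0.025. Tmem47 (chrX:81070644-81097875), a membrane protein of cell junctions, had 1224, 1098 and 1204 on day 5 and 669 and 893 on day 6 at 500 nM. At 100 nM pMN had a lowest of 1539, a median of 2091 and a highest of 3213. All libraries at 500 nM lay below all at 100 nM, and the difference was -1.17 ± 0.27 (SE, 95% interval -1.73 to -0.60), limma adjusted p 1. Tubgcp2 (chr7:139995955-140036674), a subunit of the gamma-tubulin complex that starts microtubules, had 1047, 1956 and 908 on day 5 and 1709.9 and 1499.8 on day 6 at 500 nM and a lowest of 492, a median of 693 and a highest of 804 at 100 nM. Here all libraries at 500 nM lay above all at 100 nM, the difference was 1.06 ± 0.29 (SE, 95% interval 0.46 to 1.67), and the exons overlap Zfp511 on the opposite strand. Trp53inp1, a stress protein induced by p53, was 363 to 618 at 500 nM and 634 to 2209 at 100 nM and differed by -1.39 ± 0.37 (SE, 95% interval -2.15 to -0.63). Gm14326 and Zfp974, 2 zinc finger genes of families with near-identical copies whose reads may be split, differed by -2.97 and -3.01. Akap9, a centrosomal scaffold of protein kinase A, differed by 0.60 ± 0.19 (SE, 95% interval 0.21 to 0.99). Casq2, a calcium-binding protein of muscle, was at 0 in all 6 pMN libraries at 100 nM and had 50.1, 451 and 1.75 on day 5 and 0 and 400.0 on day 6 at 500 nM. Slc37a2, Ngly1 and Ddx1 completed the pMN leaders, and the limma adjusted p of each of these pMN genes was 1.

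Whether p3 and pMN agreed was read by looking up the genes of one type in the other, as a description. The 2 contrasts share no library, though they may share dishes. Genes with an unadjusted p below 0.01 and a mean of at least 100 numbered 162 in p3 (134 higher, 28 lower). Of these 71 (43.8%) had the same sign in pMN, beside 46.9% of all genes tested, and 0 had the same sign with p below 0.05, while 7 had the opposite sign with p below 0.05. Over all genes 194 (1.42%) and 304 did. The same rule chose 64 genes in pMN (11 higher, 53 lower). Of these 23 (35.9%) had the same sign in p3, with 2 at p below 0.05 in that direction and 5 in the opposite one, beside 553 (4.05%) and 649 of all genes. Neither share of the same sign exceeded that of all genes tested, a set without the floor of 100 on the mean. That floor left genes of both kinds out of the p3 choice. Slc37a2 (mean 89.5, 5.96 in p3 and 4.89 in pMN) and Bdh2 (mean 34.8, 6.04 and 3.43) had the same sign. AI504432 (mean 55.8, 6.44 and -4.18) and Gm5481 (mean 79.0, 5.95 and -3.76) had opposite signs. At an unadjusted p below 0.05 in both types there were 54 of the 13663 genes, where p3 alone had 8.8% and pMN alone 3.64%. Of the 54, 18 had the same sign (14 higher and 4 lower at 500 nM) and 36 had opposite signs. Whether these counts exceed what the 2 rates would give was not tested. Across the 13663 genes, which are not independent replicates, the p3 and pMN differences had an r of -0.043, and -0.14 among genes with a mean of 1000 or more. Klhl11, the leading gene with reads in every library, was not among the 54, since its pMN p was 0.0561. Plekha1 (-0.76 in p3 and -0.79 in pMN) and Mbtps2 (-0.82 and -1.14) were among the 4 lower in both.

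**Figure D5:**
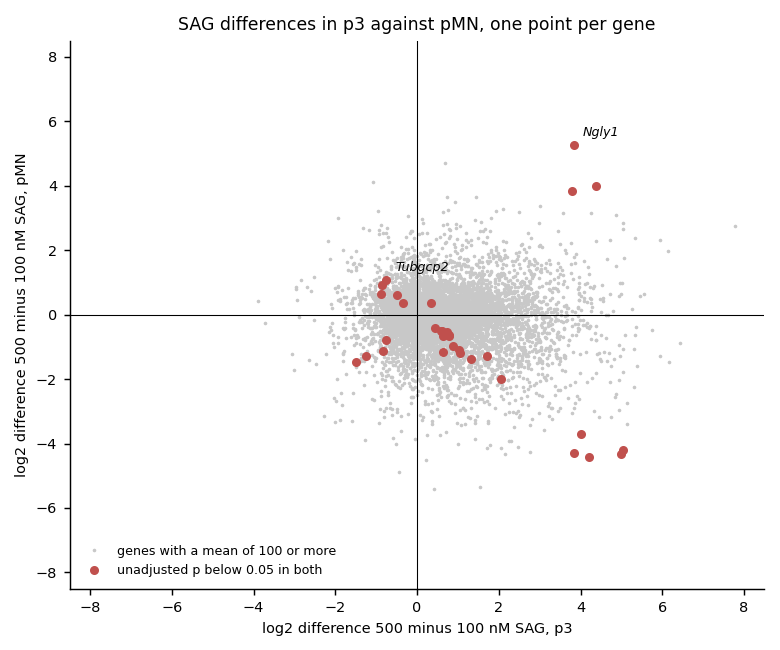
Log2(500 nM / 100 nM) in p3 (horizontal axis) against pMN (vertical axis) for the 10151 genes averaging 100 normalised reads or more, 1 point per gene. The 32 genes with an unadjusted p below 0.05 in both types are in red, and the cloud shows no slope along the diagonal.

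The difference between the types was also tested gene by gene, and 0 genes were called, with a smallest adjusted p of 0.243 (limma). Of the 960 genes at an unadjusted p below 0.05, 792 had the higher difference in p3 and 168 in pMN, a split that became 575 and 332 with quantile scaling and 417 and 408 with the genes-detected covariate. The leading genes of high level had opposite signs in the types, which a ranking by this difference favours. Tubgcp2, higher at 500 nM in pMN, ranged over 655 to 987 in p3 at 500 nM and 605 to 2317 at 100 nM, and the difference between the types was -1.81 ± 0.41 (SE, 95% interval -2.67 to -0.95), limma adjusted p 0.405. Tmem47 in p3 covered 2035 to 6059 at 500 nM and 1457 to 3315 at 100 nM, and its difference between types was 1.80 ± 0.39 (SE, 95% interval 1.00 to 2.59). Cdc37, a co-chaperone that delivers kinases to Hsp90, had 1793, 1486 and 2808 on day 5 and 2301 and 1375 on day 6 in pMN at 500 nM and 1104 to 1350.3 at 100 nM, without overlap. In p3 it had 1225 to 1773 at 500 nM and 1679 to 2909.6 at 100 nM, and the difference between types was -1.11 ± 0.29 (SE, 95% interval -1.70 to -0.51). Galnt2, which starts O-glycosylation, did not overlap in p3 (618 to 1207 and 1276 to 2513), with a difference between types of -1.53, and Dtnb, a dystrobrevin, gave -1.76. Ftl1, the ferritin light chain, gave -0.70, its reads possibly shared with its copies in the genome. Zfp932, a zinc finger gene, gave 3.00 in the opposite direction. Gm5481 and Gm14827 gave 9.72 and 8.54, with libraries at or near 0 in either type. AI504432, the first by p, was at 0 in all 5 pMN libraries at 500 nM and had 0 to 241 at 100 nM, a difference in the opposite direction to that in p3.

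The days gave no call between them (0 of 13663, smallest limma adjusted p 0.999). For the Shh targets the pooled differences of Gli1 were 0.032 on day 5 (95% interval -0.61 to 0.67) and -0.73 on day 6 (-1.45 to -0.013). Those of Ptch1 were 0.28 (-0.051 to 0.60) and -0.36 (-0.72 to 0.0090), and the change of -0.63 between the days had an unadjusted p of 0.0138 and a limma adjusted p of 0.999. Both targets were thus lower at 500 nM on day 6 than on day 5 relative to 100 nM by their means, without passing the test.

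Day 4 libraries, which the comparison did not use, held only 1 library of p3 at 100 nM. With the groups of all 65 libraries as 1 limma fit, 13 of 13964 genes were called in pMN on day 4 (0.0931%), from 2 libraries against 2, and the smallest adjusted p was 3.56e-06. All 13 were higher at 500 nM, 9 had a 0 in at least 1 of the 4 libraries, and the 4 libraries had 11416 and 12276 genes detected at 100 nM and 12574 and 14075 at 500 nM. Epha7, an ephrin receptor, led them at 6.77, and on days 5 and 6 its pMN difference was 0.75. Of the 11 that were tested on days 5 and 6, 7 had the same sign in pMN and 1, C2cd3, an unadjusted p below 0.05, at a difference of 1.32. Epha7 and C2cd3 were named after their values were seen. The same fit called 1080 genes in p3 (7.73%) and 747 over both types (5.35%). Both counts rest on the single p3 library at 100 nM, which is assumed to vary like the other groups and had 9718 genes detected, beside 12319 to 13004 in p3 at 500 nM. The part of genes detected in the day 4 calls was not tested. Gli1 had 1178, 1171 and 1172 in p3 at 500 nM and 508 in the single library at 100 nM. In pMN it had 1552 and 2087 at 500 nM and 849 and 1518 at 100 nM. The single p3 library was thus the lowest for Gli1, and in pMN both values at 500 nM lay above both at 100 nM, the higher of which was close to the lower at 500 nM. Klhl11 had 645 and 526 in pMN at 500 nM and 0 and 277 at 100 nM, the order seen on days 5 and 6, whereas in p3 240.4, 209 and 894 at 500 nM stood on both sides of 329 at 100 nM. Nkx2-9 in pMN had 442 and 1195 at 500 nM and 345 and 752 at 100 nM. Dazap2, higher at 500 nM in p3 on the later days, had 1469, 1686 and 1492 at 500 nM and 1718 at 100 nM on day 4.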

How the data were processed

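RNA was sequenced from fixed, stained and sorted cells. Per the labels and the study's methods, the authors aligned reads with STAR in an nf-core pipeline to mm10 with spike-in sequences, counted them with featureCounts over refGene genes without duplicates, and removed libraries that failed quality criteria, so group sizes differ. Use of strand and the featureCounts version are not given in the sources used here. The deposited values are a signal, read counts that the authors divided by 1 size factor per library. All of the 834400 values above 0 (100%) were whole multiples of the smallest value of their library within 0.001, so whole reads were recovered. The deposited annotation, used as other values, gave the mm10 positions, and the expression table had 25239 genes and 0 unmatched columns.

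Groups (day, SAG concentration, cell type) came from the labels, and 0 of the 22 libraries were identical to another. limma 3.58.1 (R 4.3.3, intensity trend) was fitted to log2(value + 1), a scale that understates the change of low genes, over the 13663 genes that averaged 10 or more in the 22 libraries, with 4 blocks of day by cell type and the SAG term pooled, nested in cell type or nested in day. Adjusted p-values are Benjamini-Hochberg over these genes, from limma unless named otherwise. A call needed an adjusted p below 0.01 and more than 2-fold. The study used these thresholds in a comparison of accessibility, with a higher floor on the mean count than here, and it states no test for expression. Exact two-sided permutations within day and cell type were run for 9 genes. edgeR 4.0.16 and DESeq2 1.42.0 on the recovered reads called 0 and 25 genes over both types. Pseudocount (10), filters, quantile scaling, array weights, a genes-detected covariate, replicate blocks, single days, all 65 libraries (13964 genes) and leaving out each library were alternatives. The code was tested on simulated data with 200 changed genes.

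All members of the sort, Shh target and floor plate lists were named, and counts and medians of lists include 4 genes whose own values are not reported here. Of the other lists up to 4 genes by smallest p could be, and for each comparison up to 5 per direction by smallest p with a mean of at least 100 and 1 sign in every block. Members and lists were chosen with earlier results of these data known. Day 4 was left out of the main comparison because p3 at 100 nM has 1 library there, and its calls, counted after the data were seen, come from the fit of all 65 libraries. P-values measure the spread between libraries within blocks, all from 1 cell line. Libraries of both types and both days that share a replicate number, and so possibly a differentiation, were treated as independent. So were p3 and pMN libraries that may share a dish, also in the tests between the types.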

Additional observations from a re-analysis of the deposited data

How the results depend on the processing

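The count of 0 called genes for SAG over both types, in p3, in pMN, between types and between days stayed at 0 under the pseudocount, filter, fold-rule, quantile, edgeR, array-weight and covariate alternatives and on each day alone. The exceptions were DESeq2, with 25, 156, 83, 126 and 95 called, dropping the intensity trend, with 1 over both types (Slc37a2), and the fit of all 65 libraries, with 4 in p3 (Borcs7, Clstn3, Dazap2 and Sgsm3, named after their values were seen). The cause of these exceptions was not tested. Leaving out 1 library at a time gave 0 to 1 over both types (1 without pMN library 2 of day 6 at 100 nM, Slc37a2, and 1 without pMN library 3 of day 6 at 500 nM, Bdh2), 0 to 1 in p3 (Slc22a14, without p3 library 2 of day 5 at 500 nM), and 0 in the other 3 SAG comparisons. For p3 against pMN the count of 61 became 213 with DESeq2 and 134 at an adjusted p below 0.05 with any fold, and leaving out 1 library gave 47 to 71.

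With replicate number as a fixed replicate block, the 5 SAG comparisons had 0 called genes and p3 against pMN had 66, and with a random replicate block within day and SAG they had 0 and 67, so the block changed no call for SAG. Deviations of same-numbered libraries had low positive correlations. They were 0.034 to 0.0973 over 10 pairs across SAG and 0.0296 to 0.115 over 11 pairs across cell types. Every one of the 22 libraries correlated best with its own number. Deviations within a group sum to 0, so these results are not independent, and their count overstates the evidence for a link. At 500 nM on day 6, the p3 and pMN pairs numbered 1 and 3 had the same value, 0.0296. This link is a hint from the data and not from the design, and its source was not tested.

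No gene whose sign turned under an alternative had an unadjusted p below 0.05 there. On day 5 alone the sign turned over both types for Pax6 (0.21), Gli1 (0.032), Ptch1 (0.28), Lmx1b (-0.73), Spon1 (-0.21) and Ntn1 (-0.0041), for Ptch1 in p3 (0.21) and for Foxa2 in pMN (-0.46). On day 6 alone it turned for Nkx6-1 (-0.097), Nkx2-2 (-0.78) and Vtn (-0.63) over both types and in pMN for Nkx2-2 (-1.14) and Ptch1 (-0.12). Quantile scaling turned Ptch1 (0.010), Lmx1b (-0.067), Slit2 (-0.011) and Vtn (-0.098), the covariate Nkx2-2 (-0.097), Ptch1 (0.020), Spon1 (-0.11) and Vtn (-0.13), and array weights Ptch1 (0.023) and Vtn (-0.35). Ptch1 (0.0050) and Lmx1b (-0.18) turned with edgeR, Lmx1b (-0.20) with DESeq2 and Spon1 (-0.068) with the fixed replicate block.

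Chosen after seeing the data, leaving out both p3 libraries under 11000 genes turned Olig2 (-0.039), Ptch1 (0.039), Hhip (-0.083) and Vtn (-0.52), and 0 genes were called. Leaving out 1 library at a time turned, over both types, Ptch1 (-0.057 to 0.074), Nkx2-2 (-0.25 to 0.54), Slit2 (-0.070 to 0.96), Spon1 (-0.032 to 0.39) and Vtn (-0.54 to 0.88), given as lowest and highest value. Groups of 5 or 6 libraries limit the precision, and of the 3512 genes with a mean below 100 none had an interval within 2-fold.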
